A study of Mus musculus with 4 samples.

Results

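The 46 genes described here belong to TGF-beta and BMP signalling and were chosen by symbol, as the rows of the deposited count table that carry one of 46 listed names. All 46 had a row among the 23473 rows with a gene name. They comprise 10 ligands, 11 receptors (Bambi, a decoy, among them), 3 secreted antagonists, 4 latent TGF-beta binding proteins, 8 SMADs, 6 nuclear corepressors and SMAD ubiquitin ligases, and 4 Id factors. RNA-seq counts came from 4 libraries of MIN6, a mouse insulinoma line that serves as a stand-in for pancreatic beta cells. Control MIN6 cells, labelled wild type, gave 2 libraries, and MIN6 cells with stable overexpression of TLX gave the other 2. TLX is an orphan nuclear receptor, a repressor of transcription best known from neural stem cells, and is encoded by Nr2e1. All cells grew in medium with 25 mM glucose and 15% serum. Whether the overexpressing line was a clone or a pool, which promoter drove TLX and what vector the control cells carried could not be read from the labels used here.

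In this pathway a ligand dimer joins type I and type II receptor kinases, and the type I receptor phosphorylates receptor SMADs. TGF-beta and activin signal through SMAD2 and SMAD3, BMPs through SMAD1, SMAD5 and SMAD9, and both groups share SMAD4. TGF-beta is secreted in a latent form tethered to matrix by latent TGF-beta binding proteins. In islets, activin and BMP signals act on beta cell maturation and insulin secretion, and TGF-beta restrains beta cell replication.

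Gene rows held 8435976 and 9788646 counts in the control libraries and 8490145 and 8136185 in the TLX libraries. Nr2e1 was counted 8 and 10 times in control and 338 and 281 times with TLX, in accord with the labels. The beta cell label was not borne out by most of its markers. Of 20 beta cell markers 13 were at 0 counts in all 4 libraries, among them Iapp, Nkx6-1 and Slc2a2. The insulin genes Ins1 and Ins2 were counted in every library, 70 to 98 and 32 to 50 times, as were Pdx1 (33 to 40) and Mafa (14 to 19), and none of these 4 passed (adjusted p from 0.475 to 0.932; 0 at an unadjusted p under 0.05 and 0 in DESeq2, which gave no adjusted p for 1). The 20 markers together summed to 21.1 and 19.0 CPM (counts per 1000000 counts of gene rows) in control and 21.4 and 22.4 CPM with TLX. The 15 mesenchymal markers summed to 8088 and 7673 CPM in control and 8688 and 8361 CPM with TLX. Col1a2 and Vim were high, Lum was at 0 and Dcn, Thy1 and Acta2 were near 0. Of the 9 tested markers of that list Sparc and Col1a2 rose, with log2 fold changes of 0.87 and 0.28 (adjusted p of 2.21e-08 and 0.0434). Fn1 and Pdgfrb fell, with log2 fold changes of -0.76 and -0.73 (adjusted p of 4.34e-07 and 0.00647), and the other tested markers did not pass. Leukocyte markers summed to 103 and 104 CPM in control against 86.5 and 87.7 CPM with TLX. Nearly all came from Cd68 and Cd14, with Ptprc at most 0.126 CPM and Emr1 at 0. Cd68 had a log2 fold change of -0.53 (adjusted p = 0.000391), and Cd14 did not pass (0.11, adjusted p = 0.527). Duct and acinar markers summed to 894 and 976 CPM against 724 and 740 CPM, nearly all from Spp1, with Krt19 at 0. Of the 4 tested markers of that list Spp1, Sox9 and Krt7 had log2 fold changes of -0.34, -1.37 and 1.77, the last on 7 to 27 counts a library (adjusted p of 0.00488, 1.57e-07 and 0.00151). Endothelial markers summed to at most 2.41 CPM. The part of these marker differences in the results was not tested, and in bulk RNA fewer cells of a kind and less RNA per cell cannot be told apart. Nothing in the labels says that libraries came from separate cultures, so p-values measure the spread between libraries only.

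Of the 46 genes, 33 had enough counts to be tested, 5 rose and 7 fell with TLX, and 21 did not pass (edgeR quasi-likelihood test, adjusted p under 0.05 over 11024 genes). Tgfbr2, Fst, Ski, Id3 and Id1 rose, and Inhba, Grem1, Tgif1, Ltbp1, Acvr1, Smad7 and Skil fell. The 12 changes ranged from 1.27-fold (Skil) to 1.71-fold (Grem1). The called share was 36.4% of the tested genes, against 16.8% of all genes tested (7.79% higher and 9.04% lower). The genes and the lists below were chosen with earlier results of these data known, so such contrasts in shares are descriptions only. The median log2 fold change was 0.01 over the 33 genes and 0.00 over all genes, and 17 of the 33 values were positive. TLX and control libraries did not overlap in 24 of the 33 genes, against 57.1% of all genes tested. Rises and falls stood side by side within the receptors, the antagonists and the corepressors.

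**Figure D1:**
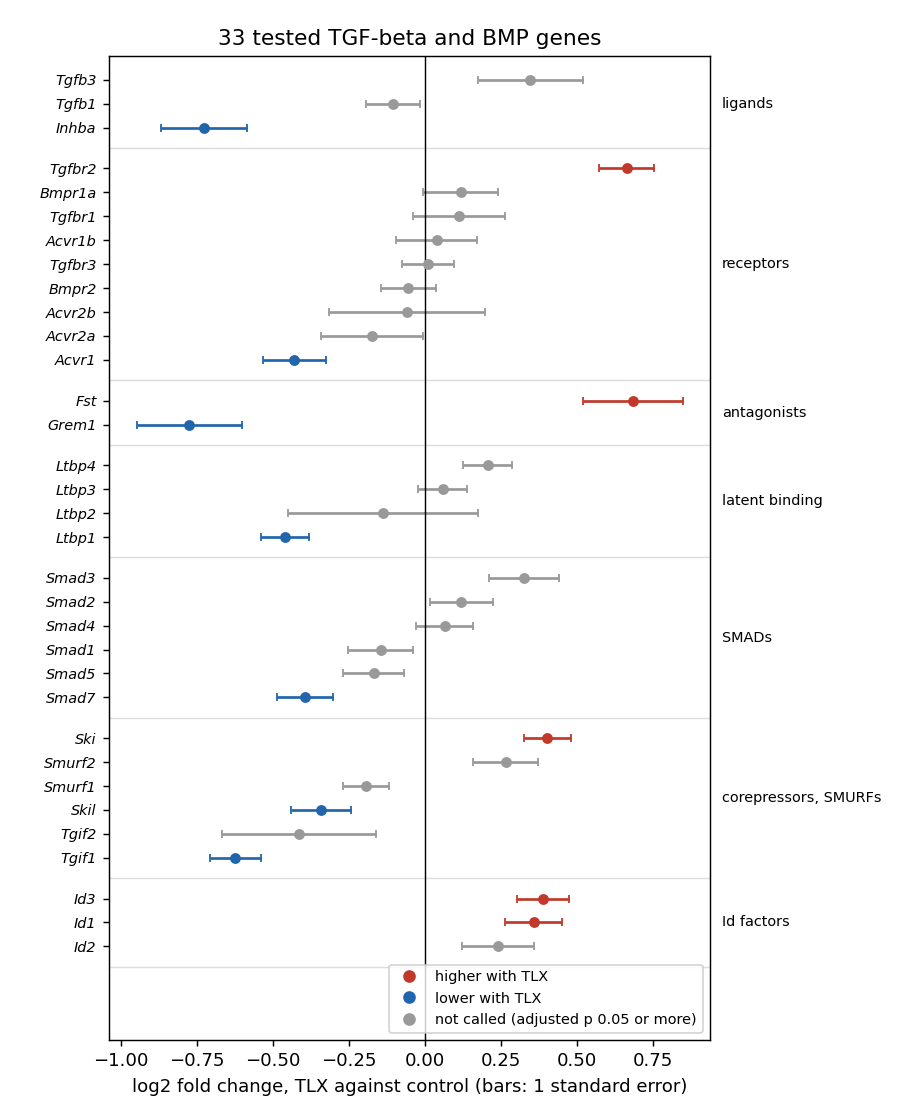
Log2 fold change of TLX against control (x axis) with 1 standard error for the 33 tested genes, grouped by role; red points rose, blue points fell and grey points did not pass. Values run from -0.78 for Grem1 to 0.68 for Fst, and the 3 Id genes lie to the right of 0.

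Upstream sequence of 6 windows is shown for genes that the results turn on. These are 3 that changed in opposite directions (Tgfbr2, Inhba, Grem1), the pair Id3 and Id2, and Ltbp1. Of the 47 windows available for the set, only 1, of Ltbp1, held the binding core of TLX. Each window is the 250 bases before an annotated RefSeq start, on the strand of the gene, build GRCm38.p6. Capitals mark 3 motifs searched on both strands: CAGAC, read as GTCTG on the other strand, the core of the CAGA box bound by SMAD3 and SMAD4; GGCGCC, its own complement, a GC-rich element of BMP SMADs; and AAGTCA, read as TGACTT on the other strand, the core bound by TLX. No marked motifs overlapped in these windows.
Tgfbr2, rose, chr9:116175364-116175613, minus strand: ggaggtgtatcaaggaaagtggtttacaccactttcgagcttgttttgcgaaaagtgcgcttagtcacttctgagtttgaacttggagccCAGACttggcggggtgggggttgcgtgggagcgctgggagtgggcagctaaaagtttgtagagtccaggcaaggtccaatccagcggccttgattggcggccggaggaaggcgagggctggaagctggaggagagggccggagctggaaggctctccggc
Inhba, fell, chr13:16011601-16011850, plus strand: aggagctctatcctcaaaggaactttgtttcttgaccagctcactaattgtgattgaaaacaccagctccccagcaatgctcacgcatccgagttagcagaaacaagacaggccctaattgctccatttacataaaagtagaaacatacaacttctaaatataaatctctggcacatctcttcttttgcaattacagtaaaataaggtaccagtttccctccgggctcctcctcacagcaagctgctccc
Grem1, fell, chr2:113758649-113758898, minus strand: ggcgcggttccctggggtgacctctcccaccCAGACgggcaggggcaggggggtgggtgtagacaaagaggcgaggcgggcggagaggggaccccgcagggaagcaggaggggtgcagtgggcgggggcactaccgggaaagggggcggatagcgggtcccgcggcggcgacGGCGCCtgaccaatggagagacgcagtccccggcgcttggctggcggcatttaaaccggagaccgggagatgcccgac
Id3, rose, chr4:136143572-136143821, plus strand: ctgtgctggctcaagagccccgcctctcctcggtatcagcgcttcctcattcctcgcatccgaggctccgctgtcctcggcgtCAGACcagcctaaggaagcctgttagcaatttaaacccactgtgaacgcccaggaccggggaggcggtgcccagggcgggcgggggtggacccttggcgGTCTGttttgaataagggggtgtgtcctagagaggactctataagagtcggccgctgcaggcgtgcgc
Id2, did not pass, chr12:25096093-25096342, minus strand: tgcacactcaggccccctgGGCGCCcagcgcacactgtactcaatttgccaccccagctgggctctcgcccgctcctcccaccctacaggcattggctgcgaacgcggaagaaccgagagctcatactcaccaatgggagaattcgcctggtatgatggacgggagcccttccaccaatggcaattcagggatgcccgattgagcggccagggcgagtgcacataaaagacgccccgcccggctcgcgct
Ltbp1, fell, the more downstream of its 2 listed starts, chr17:75178531-75178780, plus strand: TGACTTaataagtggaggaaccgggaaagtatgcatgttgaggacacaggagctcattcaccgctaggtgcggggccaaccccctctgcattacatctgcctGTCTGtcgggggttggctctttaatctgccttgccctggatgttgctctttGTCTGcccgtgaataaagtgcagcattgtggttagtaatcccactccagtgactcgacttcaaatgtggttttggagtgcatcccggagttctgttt

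The promoter table held 34 of the 46 genes, with 47 windows, and 8 of the 12 called genes. CAGAC stood in 22 of the 47 windows (46.8%), against 42.2% of the 32851 windows of all genes. GGCGCC stood in 12 (25.5% against 9.6%), and AAGTCA in 1 (2.1% against 13.1%). GGCGCC is made of G and C alone, and the GC content of these windows was not compared with that of all windows. Of the 12, 2 are overlapping windows of Ltbp4 that hold the same site. In Id3 the 2 CAGAC matches began 167 and 68 bases before the start. Among called genes CAGAC occurred in 2 of 3 that rose (Id3 and Tgfbr2) and in 3 of 5 that fell (Grem1, Ltbp1 and Tgif1), and GGCGCC in 1 of each (Ski and Grem1). The Inhba window held none of the 3 motifs, and neither did that of Acvr1. A match is a description of letters in this window and not a bound site.

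Levels can be compared between genes only per length, as CPM per kilobase of the length given in the table. On that scale Id3 was highest (76.5 over the 4 libraries), ahead of Smurf1 (46.9), Id1 (45.6), Tgif1 (32.2) and Tgfb1 (30.4). In every library Id3 lay above all other genes of the set, and the ranges of Smurf1 (42.9 to 51.5) and Id1 (40.0 to 52.6) overlapped. Bmp4, Bmp7, Inhbb, Bambi, Nog and Id4 had 0 counts in all 4 libraries, which allows up to 0.302 to 0.378 CPM in each (3 counts, counting error only). Tgfb2, Bmp6, Bmpr1b and Smad9 had at most 3 counts in any library.

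**Figure D2:**
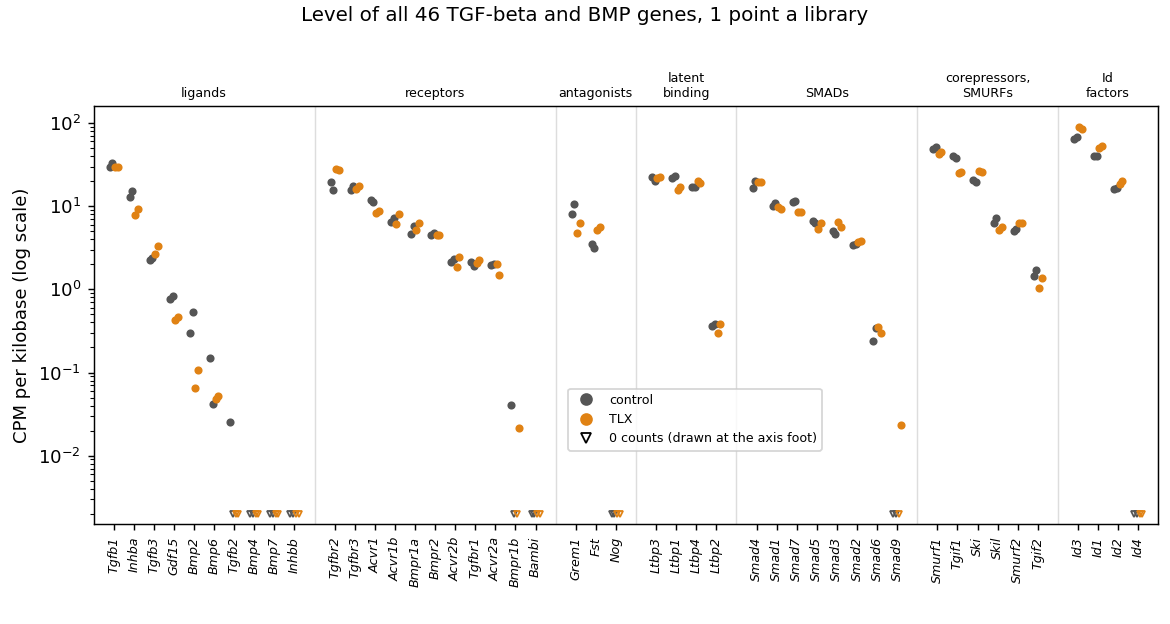
CPM per kilobase on a log axis for all 46 genes, 1 point a library, grey for control and orange for TLX, with triangles at the foot of the axis for 0 counts. Id3, Smurf1, Id1, Tgif1 and Tgfb1 lie highest, and the BMP ligands lie under 1 CPM per kilobase.

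Per length Tgfb1 was the highest ligand gene in every library, and the 1 tested ligand gene that changed encodes an activin subunit. Tgfb1, which encodes TGF-beta 1, stood at 62.1 and 69.6 CPM in control and 61.2 and 61.5 CPM with TLX. The TLX values were close together just under the lower control value, and the difference did not pass (log2 fold change -0.10, SE 0.09, adjusted p = 0.472). Inhba, whose product dimerises to activin A, was at 19.5 and 23.4 CPM in control and at 12.1 and 14.0 CPM with TLX. Both TLX libraries lay below both controls, and Inhba fell by 0.73 on the log2 scale (SE 0.14, adjusted p = 0.000763). Tgfb3, the TGF-beta 3 gene, was at 7.66 and 8.15 CPM in control and 9.13 and 11.1 CPM with TLX. Its groups did not overlap, and it did not pass (adjusted p = 0.184).

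The other 7 ligands had too few counts to be tested. Bmp2, a bone morphogenetic protein, was counted 9 and 19 times in control and 2 and 3 times with TLX, or 1.49 ± 0.59 and 0.305 ± 0.104 CPM (SD, n = 2). The TLX counts are at or under 3, the floor of detection. Bmp2 passed when the filter on low counts was dropped (log2 fold change -2.29, adjusted p = 0.00521). Its log2 fold change was -2.61 without control replicate 1, -1.98 without TLX replicate 1 and -2.65 without TLX replicate 2. Whether Bmp2 passed depended on the library left out. Gdf15, a stress-induced ligand of the same superfamily, was counted 7 and 9 times in control and 4 times in each TLX library. Gdf15 did not pass without the filter (adjusted p = 0.557).

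Among the receptors the type II receptor of TGF-beta rose, a type I receptor fell, and the other 7 tested genes did not pass. The called share was 22.2%, against 16.8% of all genes. Tgfbr2, the receptor kinase that binds TGF-beta, was at 92.5 and 75.7 CPM in control and at 135 and 131 CPM with TLX. The control libraries differed by more than the TLX libraries, yet both TLX values lay above both, and Tgfbr2 rose 1.58-fold (log2 fold change 0.66, SE 0.09, adjusted p = 1.43e-05). Tgfbr1, its type I partner, stayed between 10.8 and 12.6 CPM in all 4 libraries with overlapping groups (log2 fold change 0.11, SE 0.15, adjusted p = 0.675). Tgfbr3, the coreceptor betaglycan, ranged from 93.7 to 105 CPM with overlapping groups (adjusted p = 0.952).

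Acvr1, the BMP and activin type I receptor ALK2, was at 39.1 and 37.5 CPM in control and 27.6 and 29.2 CPM with TLX. The groups were well apart, and Acvr1 fell by 0.43 on the log2 scale (SE 0.10, adjusted p = 0.00528). In DESeq2 the adjusted p was 0.0691, and without TLX replicate 1 it was 0.0805. Bmpr1a and Bmpr2, the main BMP type I and type II receptors, averaged 28.7 and 31.4 CPM in control and TLX for Bmpr1a and 51.96 and 50.02 CPM for Bmpr2 (adjusted p of 0.574 and 0.730). The activin receptors Acvr1b, Acvr2a and Acvr2b had log2 fold changes of 0.04, -0.17 and -0.06, each with overlapping groups (adjusted p from 0.529 to 0.910). The decoy receptor gene Bambi had no counts and Bmpr1b had 2, 0, 0 and 1.

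The tested antagonists moved in opposite directions. Fst, whose product follistatin binds and neutralises activin, was at 8.14 and 7.44 CPM in control and at 12 and 13 CPM with TLX. Fst rose 1.61-fold (log2 fold change 0.68, SE 0.16, adjusted p = 0.00511), on 68 to 104 counts a library, and its adjusted p in DESeq2 was 0.0980. An exon of Fst overlaps a gene model on the other strand in GRCm38, whose reads cannot be told apart without strand. Grem1, which encodes the BMP antagonist gremlin, was at 13 and 17.3 CPM in control and at 7.74 and 10.2 CPM with TLX. Grem1 had the largest fall of the tested set (log2 fold change -0.78, SE 0.17, adjusted p = 0.00294) with groups that did not overlap, and it passed under all 13 alternatives. The third antagonist, noggin, is encoded by Nog, which had no counts.

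**Figure D3:**
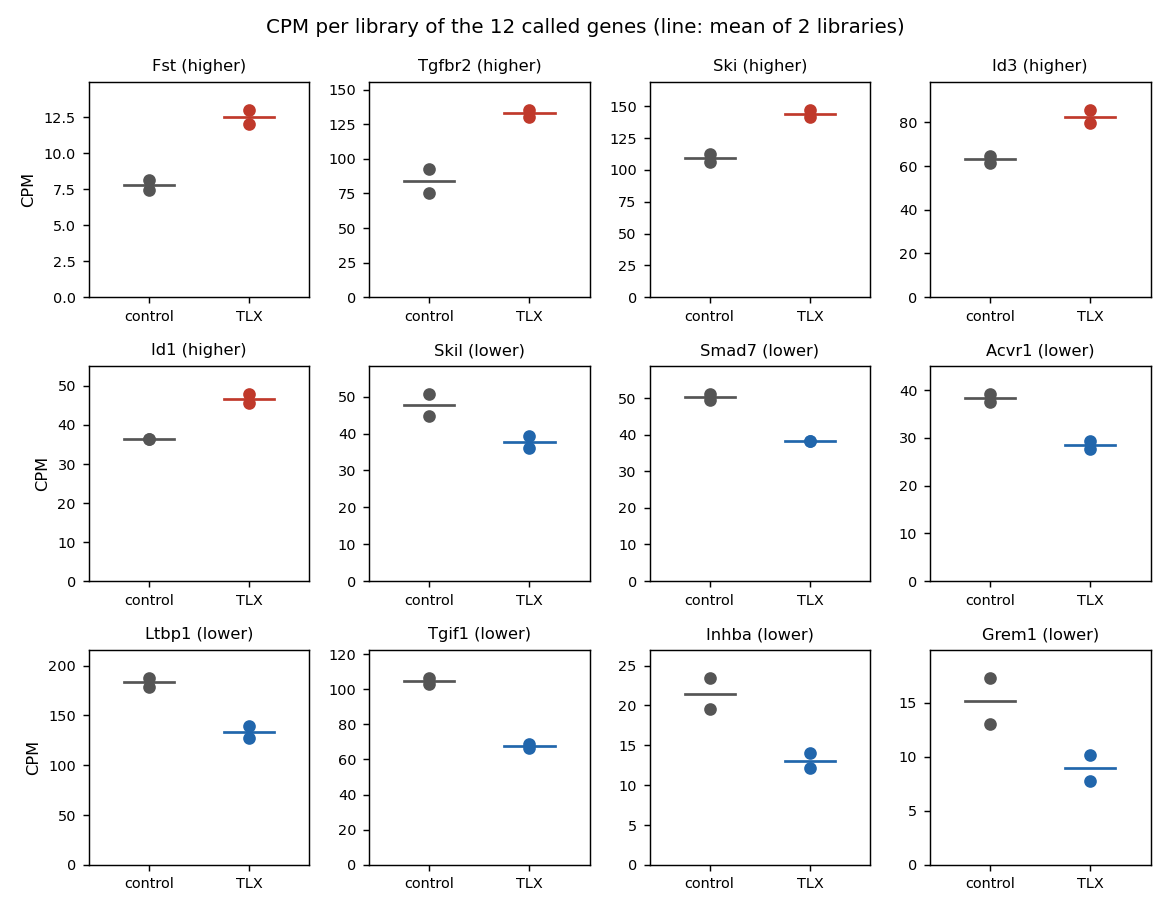
CPM of each library (points) and the mean of 2 libraries (lines) for the 12 called genes, with each vertical axis starting at 0. In no panel do the groups overlap; the points of Smad7, Id1 and Tgif1 lie close together within a group, and those of Grem1 and Skil lie farther apart.

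Of the 4 latent TGF-beta binding protein genes, Ltbp1 alone passed (25% called, against 16.8% of all genes). Ltbp1, which tethers latent TGF-beta to fibrillin matrix, was at 179 and 188 CPM in control and at 127 and 140 CPM with TLX. It fell by 0.46 on the log2 scale (SE 0.08, adjusted p = 0.000229), and both TLX libraries were well under both controls. Ltbp3 ranged from 105 to 116 CPM with overlapping groups (adjusted p = 0.690). Ltbp4 was at 94.2 and 94.8 CPM in control and 112 and 106 CPM with TLX, groups that did not overlap, and it did not pass (adjusted p = 0.0842). Ltbp2, the one of the family that does not bind latent TGF-beta, was low at 1.96 to 2.52 CPM. Of the per-length level of Ltbp1, Ltbp3 and Ltbp4 together, Ltbp1 made up 36.1% and 38.3% in control and 27.3% and 29.3% with TLX.

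Of the 6 tested SMADs inhibitory Smad7 passed and the receptor SMADs did not, a called share of 16.7% that lies near the 16.8% of all genes. Smad7, a feedback inhibitor that blocks the type I receptor, was at 49.5 and 51.1 CPM in control and at 38.2 and 38.3 CPM with TLX. Replicates lay close together, and Smad7 fell by 0.40 on the log2 scale (SE 0.09, adjusted p = 0.00464). The adjusted p was 0.0586 in DESeq2 and 0.0535 without TLX replicate 1. Smad6, the other inhibitory SMAD, was counted 6 to 10 times a library and was not tested.

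Smad3, of the TGF-beta and activin branch, was at 25.6 and 23.4 CPM in control and 32.6 and 28.6 CPM with TLX. Its groups did not overlap, and it missed the threshold (log2 fold change 0.32, SE 0.11, adjusted p = 0.0542); it passed without control replicate 1 (0.0193) and without the filter on low counts (0.0458). Smad2 had a log2 fold change of 0.12 (adjusted p = 0.475). Smad1 and Smad5, of the BMP branch, had log2 fold changes of -0.15 and -0.17 (adjusted p of 0.390 and 0.275). The shared partner Smad4 was at 55.9 and 67.1 CPM in control and 64.5 CPM in each TLX library, inside the control range (adjusted p = 0.702). Per length, Smad2 and Smad3 made up 33.5% and 31.8% of the sum of Smad1, Smad2, Smad3 and Smad5 in control and 40.0% and 37.7% with TLX.

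The nuclear corepressors split, and related genes went opposite ways. Ski, which binds SMAD complexes and recruits histone deacetylases, was at 112 and 106 CPM in control and at 147 and 141 CPM with TLX. Ski rose by 0.40 on the log2 scale (SE 0.08, adjusted p = 0.000893), and the groups were apart. Skil, which encodes its relative SnoN and is itself induced by TGF-beta, was at 44.9 and 50.7 CPM in control and 36.2 and 39.5 CPM with TLX. It fell by 0.34 on the log2 scale (SE 0.10, adjusted p = 0.0188), the weakest of the 12 calls: the adjusted p was 0.161 in DESeq2, 0.106 without control replicate 2 and 0.225 without TLX replicate 1.

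Tgif1, a homeodomain corepressor of SMAD2, had the smallest p of the set. It was at 106 and 103 CPM in control and at 66.7 and 68.9 CPM with TLX. Tgif1 fell by 0.63 on the log2 scale (SE 0.08, adjusted p = 1.13e-05), and each pair of replicates lay close together. Its paralog Tgif2 was at 4.07 and 4.73 CPM in control and 2.89 and 3.78 CPM with TLX and did not pass (log2 fold change -0.41, SE 0.25, adjusted p = 0.287). Of the ubiquitin ligases that target SMADs and receptors, Smurf1 was at 259 and 275 CPM in control and 229 and 238 CPM with TLX (log2 fold change -0.19, adjusted p = 0.0821). Smurf2 averaged 27.8 CPM in control and 33.5 CPM with TLX (log2 fold change 0.26, adjusted p = 0.0903). Neither pair of groups overlapped, and neither gene passed; Smurf1 passed without control replicate 1 (adjusted p = 0.0213).

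Of the Id genes, direct targets of BMP SMADs that encode inhibitors of basic helix-loop-helix factors, Id3 and Id1 rose, Id2 did not pass and Id4 had no counts. Id3, whose window with 2 CAGAC matches is printed above, was at 61.5 and 64.8 CPM in control and at 85.5 and 79.8 CPM with TLX. Id3 rose 1.31-fold (log2 fold change 0.39, SE 0.09, adjusted p = 0.00283), and its adjusted p without TLX replicate 1 was 0.0817. Id1 was at 36.5 and 36.4 CPM in control and at 45.5 and 47.9 CPM with TLX. Id1 rose 1.28-fold (log2 fold change 0.36, SE 0.09, adjusted p = 0.0112), with an adjusted p of 0.117 in DESeq2 and 0.133 without TLX replicate 2. Id2 was at 20.2 and 21.0 CPM in control and 23.2 and 25.6 CPM with TLX, groups that did not overlap, and did not pass (log2 fold change 0.24, SE 0.12, adjusted p = 0.180). The 4 Id genes summed to 118 and 122 CPM in control and to 154 and 153 CPM with TLX, all from Id1, Id2 and Id3.

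Ratios of 2 genes within a library do not depend on the scaling of libraries, and were formed after the values had been seen. With per-length counts, Inhba stood to Fst as 3.66 and 4.81 to 1 in control and as 1.54 and 1.65 to 1 with TLX. Tgfbr2 stood to Tgfbr1 as 9.15 and 8.32 in control and 13.4 and 12.3 with TLX, and Ski to Skil as 3.23 and 2.70 against 5.25 and 4.63. Smad7 stood to Smad4 as 0.667 and 0.573 in control and 0.446 and 0.447 with TLX. None of these groups overlapped. For Inhba to Fst and for Ski to Skil this was fixed by the choice, because both genes were already apart in opposite directions. The ratio of Id3 to Id1, both of which rose, was 1.61 and 1.70 in control and 1.80 and 1.59 with TLX, which did overlap. With 2 libraries against 2 an exact two-sided permutation test cannot go below p = 0.333, so the ratios are given without a test.

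**Figure D4:**
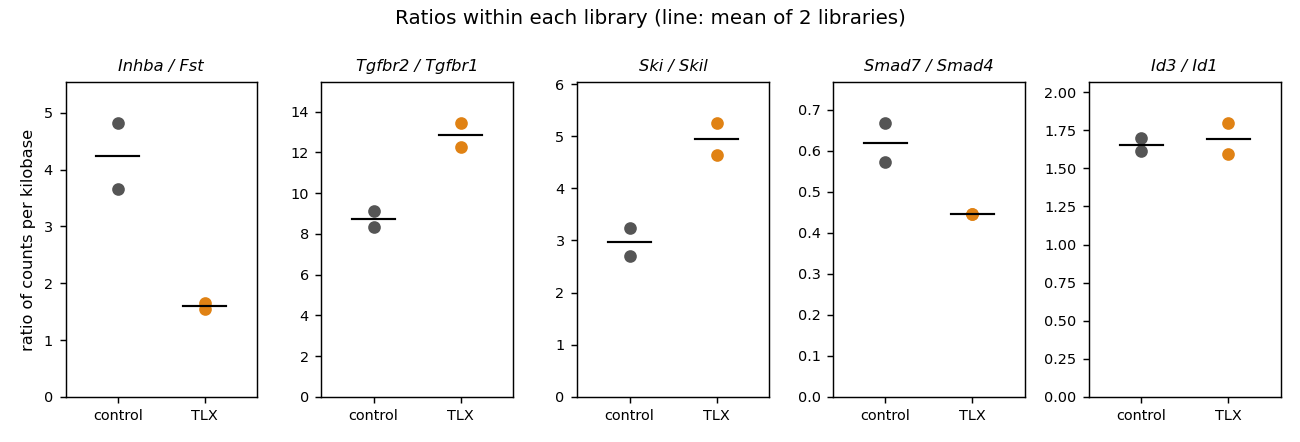
Ratio of per-length counts of 2 genes in each library (points) with the mean of 2 libraries (lines), each axis starting at 0. The first 4 ratios separate control from TLX libraries, and the ratio of Id3 to Id1 does not. The pairs were chosen after the values had been seen.

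Genes of the pathway outside the 46 were read from 7 lists, of which 70 of 127 genes were tested, 6 rose, 12 fell and 52 did not pass (25.7% called, against 16.8% of all genes). None of 4 other ligands, 5 other receptors and coreceptors and 5 other antagonists passed in edgeR (2 of the 14 at an unadjusted p under 0.05; 0 in DESeq2, which gave no adjusted p for 3). Of these Lefty1, a Nodal antagonist (1.99 and 3.57 CPM in control and TLX, adjusted p = 0.0682), and Bmper, a BMP-binding protein (18.2 and 14.2 CPM, adjusted p = 0.0703), came closest. Of 6 tested genes of latency and activation Mmp14, a membrane metalloproteinase, and Thbs1, which encodes the TGF-beta activator thrombospondin, rose by 0.30 and 0.45 on the log2 scale (adjusted p of 0.0121 and 0.0487). Both calls were lost in DESeq2 (highest adjusted p over the alternatives 0.157 and 0.358). Of 28 intracellular regulators 3 rose and 2 fell, a called share of 17.9% that lies near the 16.8% of all genes. Nedd4l, a ubiquitin ligase of SMAD2 and SMAD3, fell from 59.3 ± 3.4 to 39.3 ± 3.2 CPM (SD, n = 2; adjusted p = 0.000113), and Zfyve16, which encodes the endosomal SMAD partner endofin, showed a fall of 0.69 (log2 fold change -0.69, adjusted p = 0.00850). The coactivator gene Ep300, the SMAD phosphatase gene Ctdsp2 and Tob1 had rises of 0.29, 0.25 and 0.31. Of these 5 genes only Nedd4l passed under every alternative run.

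Genes commonly induced by TGF-beta included 9 that fell and 2 that rose. They were among 19 tested outside the 46, of which 8 did not pass (57.9% called, against 16.8% of all genes), with a median log2 fold change of -0.25 against 0.00 over all genes. Angptl4, an inhibitor of lipoprotein lipase, fell from 23.8 ± 1.0 to 7.08 ± 1.03 CPM, and Cyr61, a matricellular protein gene, from 252 ± 4 to 178 ± 6 CPM (SD, n = 2; adjusted p of 1.93e-08 and 5.17e-05). Fn1, Snai2 and Junb fell by 0.76, 0.97 and 0.49 on the log2 scale. Ctgf, a matricellular protein gene commonly used as a TGF-beta readout and named after its values were seen, did not pass (13.5 CPM in control and 13.2 CPM in TLX, adjusted p = 0.907). The 2 that rose were Col1a2 and Thbs1, named for the same reason; the call of Col1a2 was lost with each of the 4 libraries left out in turn. Many genes of this list also answer to growth factors and stress. Of 6 tested BMP targets outside the 46, 0 rose in edgeR (0 at an unadjusted p under 0.05; 0 in DESeq2, which gave no adjusted p for 1). Of all genes 7.79% were called higher, so 0 of 6 says little. Junb and Gata3 fell (33.3% called, against 16.8% of all genes), Gata3 from 4.02 ± 1.29 to 1.19 ± 0.44 CPM (adjusted p = 0.00117). Gata3 was counted 26 and 49 times in control and 13 and 7 times with TLX. Junb stands in both lists. In a separate list of the stress responses that induce Gdf15, 6 of 7 tested genes fell (85.7% called, against 16.8% of all genes). Among them were Ddit3, Trib3 and Nupr1, with log2 fold changes of -1.59, -1.02 and -0.96. Cdkn1a, another of the 6, also stands among the TGF-beta targets that fell.

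**Figure D5:**
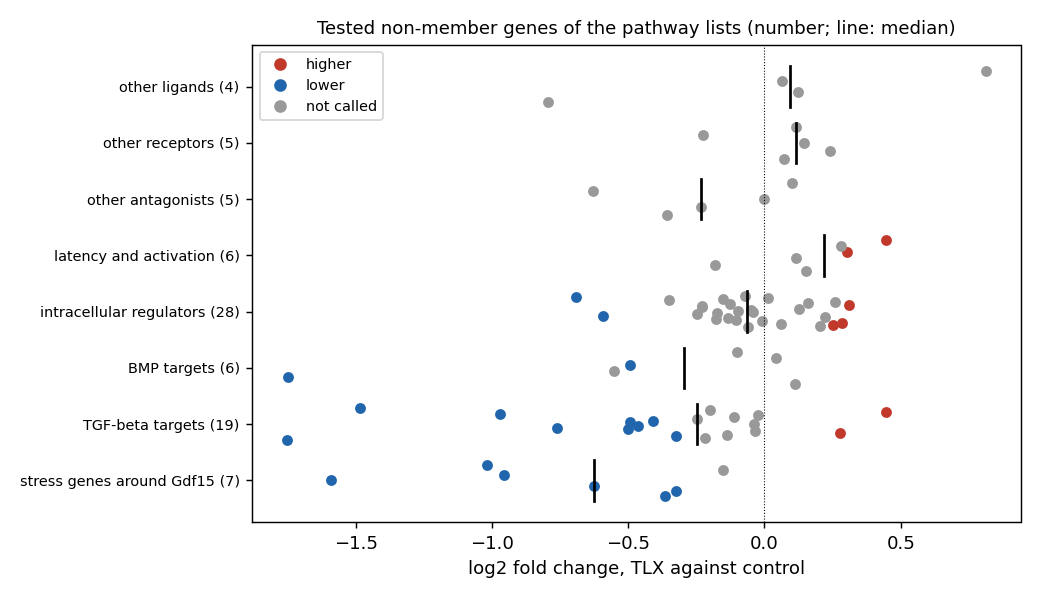
Log2 fold change of TLX against control (x axis) for tested genes outside the 46, by list, with the number tested and the median as a line; red rose, blue fell, grey did not pass. The TGF-beta target and stress lists lie mostly left of 0, and the ligand, receptor and antagonist lists hold no called gene.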

How the data were processed

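The authors deposited a table of unnormalized read counts, integers for each feature in each library, and a length for each feature, per the file headers. TopHat2 2.0.13 and mouse build mm9 appear in the submitters' processing notes; counter, annotation and strandedness were not stated in what was used here. Clone rows (33353 of 56826) entered neither library sizes nor tests. After filterByExpr (minimum count 10) and TMM scaling, 11024 gene rows were fitted in edgeR 4.0.16 (glmQLFit, glmQLFTest; R 4.3.3) on 2 residual degrees of freedom, and p-values were adjusted by Benjamini-Hochberg at 0.05. CPM uses TMM-scaled gene row totals. Each SE is the log2 fold change's size over the square root of F, and each SD is over 2 libraries. Fits were tested on simulated data. Alternatives were DESeq2 1.42.0, limma-voom 3.58.1, other scalings, filters and feature sets, a replicate block and leaving out each library. The members and lists were chosen with earlier results of these data known. All called members are named, and from each list at most 6 called genes of smallest p. Promoter windows come from RefSeq (GRCm38.p6), matched by symbol. For 28 of 34 genes the first bases after 1 listed start lay in a GENCODE transcript of the gene. For the rest this was not found, and their starts rest on RefSeq alone. In the GENCODE annotation of GRCm38, 7 tested genes share exon sequence with a gene on the other strand, of which Fst alone was called; without strand their reads cannot be told apart. Median chi-square values between replicate libraries were 1.13 and 0.924, against 2.10 to 2.30 between groups. The libraries differed in their counts, so none was taken for a copy of another. These values cannot tell separate cultures from repeated sequencing of the same sample, because no reference value for repeated sequencing was set.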

Additional observations from a re-analysis of the deposited data

How the results depend on the processing

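Of 424 values of the 33 tested genes over 13 alternatives, 393 kept their direction and side of the threshold, 11 lost a call, 7 gained one and 13 changed sign. Inhba, Grem1, Tgif1, Ltbp1, Tgfbr2 and Ski passed under all 13. DESeq2 called 3 higher and 4 lower genes, all among the 12, and 839 genes in all against 1856. With each library left out in turn, 4 to 6 were higher and 4 to 9 lower (4 without TLX replicate 1, which lost Acvr1, Id3, Skil and Smad7), and 1024 to 2053 genes were called in all, with 1039 and 1024 without TLX replicates 1 and 2; the single library left in a group is then assumed to vary like the other group. The labels do not say that replicate numbers pair the libraries, and deviations of same-numbered libraries correlated at 0.108. With the replicate number as a block, 8 were higher and 8 lower, and 2982 genes were called in all; all 12 calls were kept, and Ltbp4, Smad3, Smurf1 and Smurf2 were added.

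The 13 sign changes were of genes that never passed. Tgfbr3 had -0.0019 when genes under 10 CPM were left out. With a library left out, log2 fold changes ranged from -0.0727 to 0.0986 for Tgfbr3, -0.0374 to 0.303 for Bmpr1a, -0.176 to 0.235 for Acvr1b, -0.414 to 0.0172 for Acvr2a, -0.272 to 0.141 for Acvr2b, -0.322 to 0.0348 for Ltbp2, -0.00865 to 0.12 for Ltbp3 and -0.0593 to 0.206 for Smad4. The cause of these changes was not tested. Of the 13 genes not tested, 6 had 0 counts in all libraries and 7 had counts under the filter. For the 6 at 0 counts, differences under the limits of 0.302 to 0.378 CPM could not be seen. The 7 were fitted in edgeR with no filter, where only Bmp2 passed (adjusted p = 0.00521). Small differences in the others were not detectable at this depth.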
